A study of Mus musculus with 4 samples.

Results

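Cytosolic ribosomal protein genes were examined for Isl1 peaks in chromatin of the embryonic genital tubercle. They were taken by symbol from the RefSeq protein-coding genes of mouse: Rpl or Rps with a number and at most 1 letter (a, x, l or y), together with Rplp0, Rplp1, Rplp2 and Rpsa. Rps6k kinase genes, pseudogene symbols and paralogs with a suffix such as that of Rpl22l1 were left out. Paralogs whose symbol ends in l alone (Rpl3l, Rpl10l, Rpl32l, Rpl39l and Rps27l) were kept. The rule gave 81 genes, 50 of the large and 31 of the small ribosomal subunit, of 21883 protein-coding genes. The rule uses gene symbols and no peak value.

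The samples were 2 Isl1 ChIP samples (chromatin immunoprecipitation followed by sequencing) and 2 input DNA samples, all from genital tubercles of wildtype CD1 embryos at E14.5 (days of embryonic development). The antibody was a rabbit monoclonal against ISL1, and how many embryos made up a sample is not given in the sources used here. Each ChIP sample has 1 list of peaks, with 8860 peaks in replicate 1 and 10162 in replicate 2, and the input samples have none. A peak carries a whole-number score made by the authors, with a median of 90 in the list of replicate 1 and 96 in that of replicate 2 and a lowest value of 20 in each. Read totals are not in the lists, so the depth is unknown, and binding under the authors' threshold would not be seen. Positions are in mm10.

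A ribosome has a small subunit, which decodes the messenger RNA, and a large subunit, which joins the amino acids, and each holds many different proteins bound to ribosomal RNA. Most of their genes are short, active in nearly every cell, and transcribed from compact promoters. Their messenger RNAs usually begin with a C and a run of pyrimidines (the TOP sequence), through which their translation follows growth signals. Isl1 is a LIM-homeodomain transcription factor that binds DNA sequences with a TAAT core.

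A shared region was counted where peaks of the replicates overlapped by at least 1 bp, and it was placed by the midpoint of that overlap. A shared region lay inside or within 10 kb of 13 of the 81 ribosomal protein genes (16.0%, Wilson 95% interval 9.63 to 25.5%), against 14.3% of all protein-coding genes. That share was near that of all genes, which are mostly longer. Among the 8795 genes no longer than the longest ribosomal protein gene (11774 bp), 7.63% had a region in the gene or within 10 kb. Each of the 13 genes had 1 region, and no region was counted at more than 1 of them. A further 7 genes had a peak in a single list, and 61 had none in either list. With 2 libraries of a single group no test between groups was possible, and intervals cover counting error only.

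Close to the start of the gene the share stood above the background. RefSeq starts were at hand for 61 of the 81 genes, and 7 of those 61 (11.5%, 5.67 to 21.8%) had a shared region within 1 kb of a start, against 4.93% of the 17491 protein-coding genes with a start in the same table. These were Rpl22, Rps12, Rpl38, Rpl9, Rpl5, Rpl35a and Rpl19, of which Rps12 alone is of the small subunit. Counted at either end of the gene, which needs no strand, 8 of 81 (9.88%, 5.09 to 18.3%) had a region within 1 kb, against 4.89%. Among the 8795 shorter genes, 3.62% had one within 1 kb of an end. The size of these windows does not grow with the gene, although a gene with several starts has a window at each: the 61 ribosomal protein genes have 73 starts, and the 17491 genes of the table have 21262. Rpl22, Rpl35a and Rpl19 are among the 10 ribosomal protein genes with several. Ribosomal protein genes had a median length of 3175 bp, against 17170 bp for all protein-coding genes.

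The promoter windows of the 5 strongest regions at a start are printed to show where the peaks lie. Each runs 5′ to 3′ on the strand of the gene, from 250 bases before the RefSeq start to 50 bases from it on (GRCm38.p6, the assembly of mm10), and capitals mark bases that lay in the peaks of both replicates. The windows are chr4:152325476-152325775 (plus strand) for Rpl22, chr10:23787160-23787459 (minus) for Rps12, chr11:114668330-114668629 (plus) for Rpl38, chr5:65391382-65391681 (minus) for Rpl9 and chr5:107900278-107900577 (plus) for Rpl5.
Rpl22: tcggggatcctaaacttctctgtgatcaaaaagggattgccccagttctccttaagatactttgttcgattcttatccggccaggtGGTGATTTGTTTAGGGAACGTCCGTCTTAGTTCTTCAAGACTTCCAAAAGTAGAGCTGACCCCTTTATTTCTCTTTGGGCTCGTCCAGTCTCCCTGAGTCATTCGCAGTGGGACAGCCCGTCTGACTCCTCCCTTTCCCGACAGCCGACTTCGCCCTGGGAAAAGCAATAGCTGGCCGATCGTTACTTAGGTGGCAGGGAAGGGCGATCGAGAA
Rps12: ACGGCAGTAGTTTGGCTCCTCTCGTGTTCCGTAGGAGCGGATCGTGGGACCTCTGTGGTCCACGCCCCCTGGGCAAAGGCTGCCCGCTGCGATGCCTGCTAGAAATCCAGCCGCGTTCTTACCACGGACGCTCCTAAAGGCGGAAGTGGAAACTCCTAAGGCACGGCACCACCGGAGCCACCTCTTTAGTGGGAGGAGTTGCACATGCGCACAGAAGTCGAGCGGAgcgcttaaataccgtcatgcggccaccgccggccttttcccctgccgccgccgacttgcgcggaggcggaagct
Rpl38: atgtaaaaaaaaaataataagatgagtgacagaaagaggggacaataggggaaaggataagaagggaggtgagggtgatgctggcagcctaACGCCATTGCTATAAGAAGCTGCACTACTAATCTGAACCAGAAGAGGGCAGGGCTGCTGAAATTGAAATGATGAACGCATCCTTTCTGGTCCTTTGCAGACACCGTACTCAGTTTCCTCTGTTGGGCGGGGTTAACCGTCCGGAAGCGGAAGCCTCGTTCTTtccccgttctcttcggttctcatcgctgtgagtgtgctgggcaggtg
Rpl9: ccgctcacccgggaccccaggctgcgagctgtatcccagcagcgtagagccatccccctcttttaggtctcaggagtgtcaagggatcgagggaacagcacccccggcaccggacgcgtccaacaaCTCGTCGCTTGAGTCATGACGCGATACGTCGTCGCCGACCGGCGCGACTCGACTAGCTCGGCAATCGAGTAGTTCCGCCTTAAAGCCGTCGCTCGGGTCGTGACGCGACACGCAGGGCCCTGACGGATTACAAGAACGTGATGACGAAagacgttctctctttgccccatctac
Rpl5: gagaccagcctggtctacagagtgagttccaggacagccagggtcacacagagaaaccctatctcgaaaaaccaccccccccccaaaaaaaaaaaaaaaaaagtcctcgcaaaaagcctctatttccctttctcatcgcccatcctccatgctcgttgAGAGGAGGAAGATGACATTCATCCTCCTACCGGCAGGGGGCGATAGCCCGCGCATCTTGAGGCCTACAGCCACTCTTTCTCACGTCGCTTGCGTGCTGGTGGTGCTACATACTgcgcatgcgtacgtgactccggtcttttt
The shared part held the start itself in Rpl22, Rpl38, Rpl9 and Rpl5 and stopped 25 bases short of it in Rps12. The annotated gene of Rps12 extends beyond that start to 23787383, a base that lay in the peaks of both replicates. The shared part took up 214 of the 300 bases in Rpl22, 226 in Rps12, 162 in Rpl38, 148 in Rpl9 and 113 in Rpl5.

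**Figure D1:**
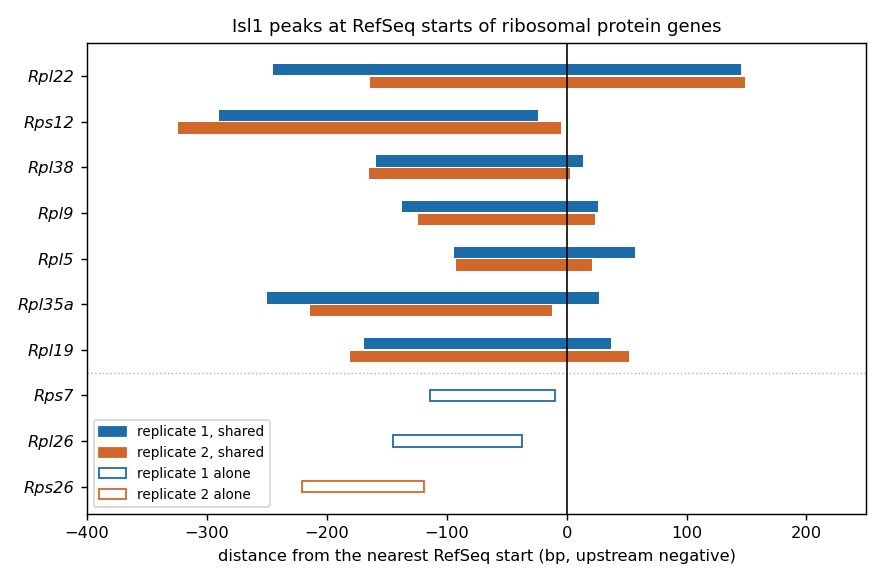
Peaks at RefSeq starts of ribosomal protein genes, as spans along the distance from the nearest RefSeq start in bp, with upstream negative. Filled bars are peaks of shared regions and open bars peaks of a single list (blue, replicate 1; orange, replicate 2). In 5 of the 7 genes with a shared region (Rpl22, Rpl38, Rpl9, Rpl5 and Rpl19) the stretch common to both replicates holds the start.

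Among large subunit genes, Rpl22 had the strongest region. Rpl22 encodes a protein that the ribosome can do without in most tissues and that is known for its role in lymphocyte development. Its region (chromosome 4, 152325481 to 152325874) scored 1510 in replicate 1 and 1638 in replicate 2. The score was the third highest of 8860 peaks in replicate 1 and the highest of 10162 in replicate 2, and by the lower of both scores the region ranked 2 of 6834 shared regions. RefSeq gives 2 starts for Rpl22, at 152324436 and 152325726, and the midpoint lay 10 bp upstream of the second. The region is inside the gene as annotated, 1.28 kb from its first base, and so is not counted among those within 1 kb of a gene end.

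Rpl38, which in mouse embryos is needed for the translation of a subset of Hox messenger RNAs and for normal skeletal patterning, had a region with scores of 589 and 397 (chromosome 11, 114668415 to 114668593). Its midpoint was 78.5 bp upstream of the RefSeq start and inside the gene as annotated. Rpl9 had scores of 322 and 206 in replicates 1 and 2 (chromosome 5, 65391406 to 65391568). Its midpoint lay 50.5 bp upstream of its own start and 15.5 bp upstream of the start of Lias, the lipoic acid synthase gene, which runs the other way. The region was thus nearer to the start of Lias than to that of Rpl9.

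Rpl5, whose protein joins Rpl11 and 5S ribosomal RNA in a particle that can bind Mdm2, had scores of 128 and 100 (chromosome 5, 107900434 to 107900584), 36 bp upstream of its start. Rpl11 had no peak in either list. Rpl35a, one of the genes mutated in human Diamond-Blackfan anaemia, had scores of 121 and 82 (chromosome 16, 33056203 to 33056479). The midpoint was 113.5 bp upstream of the nearest of its 3 starts and 153.5 bp upstream of that of Iqcg, a neighbour on the opposite strand. Rpl19 had scores of 157 and 80 (chromosome 11, 98026743 to 98026975) and a midpoint 66.5 bp upstream of a start, inside the gene as annotated. Scores of Rpl5, Rpl35a and Rpl19 in replicate 2 were close to or under that list's median of 96.

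The remaining large subunit regions were at genes with no start in the table, or away from the gene. Rpl3, a protein near the peptidyl transferase centre, had scores of 227 and 197 (chromosome 15, 80083473 to 80083664), 157.5 bp outside an end of the gene. Rpl32 had scores of 107 and 117 (chromosome 6, 115808743 to 115809059), 158 bp outside an end. Rpl7 had the weakest region, with scores of 26 and 54 (chromosome 1, 16104953 to 16105082), 587.5 bp outside an end. A stronger peak at Rpl7, 57 bp outside that end with a score of 153, was in the list of replicate 1 alone, although the nearest replicate 2 peak was only 0.382 kb away. At Rpl7a the region (chromosome 2, 26902954 to 26903118, scores 221 and 217) lay 7.65 kb from the gene and 145 bp upstream of the start of Surf6, a nucleolar protein gene of the same cluster.

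Of the small subunit genes, Rps12 alone had a region within 1 kb of a gene end or start. Its scores were 709 and 442 (chromosome 10, 23787215 to 23787533), with the midpoint 157.5 bp upstream of the start in the table. That midpoint was inside the gene as annotated, 16.5 bp from an end. Rps29 had a strong region in its window, with scores of 835 and 700 (chromosome 12, 69168515 to 69168867). It lay 9.49 kb from Rps29 and 136 bp upstream of the start of Lrr1, a leucine-rich repeat gene. The region of Rps24, another Diamond-Blackfan anaemia gene in humans, was at the end of a neighbour too. Its midpoint (chromosome 14, 24486993 to 24487153, scores 153 and 131) was 5 bp from an end of Polr3a, the gene of the largest RNA polymerase III subunit, and 3.61 kb from Rps24. By the gene with the nearest end, 9 of the 13 regions belonged to the ribosomal protein gene and 4 to a neighbour: Lrr1, Surf6, Lias and Polr3a.

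**Figure D2:**
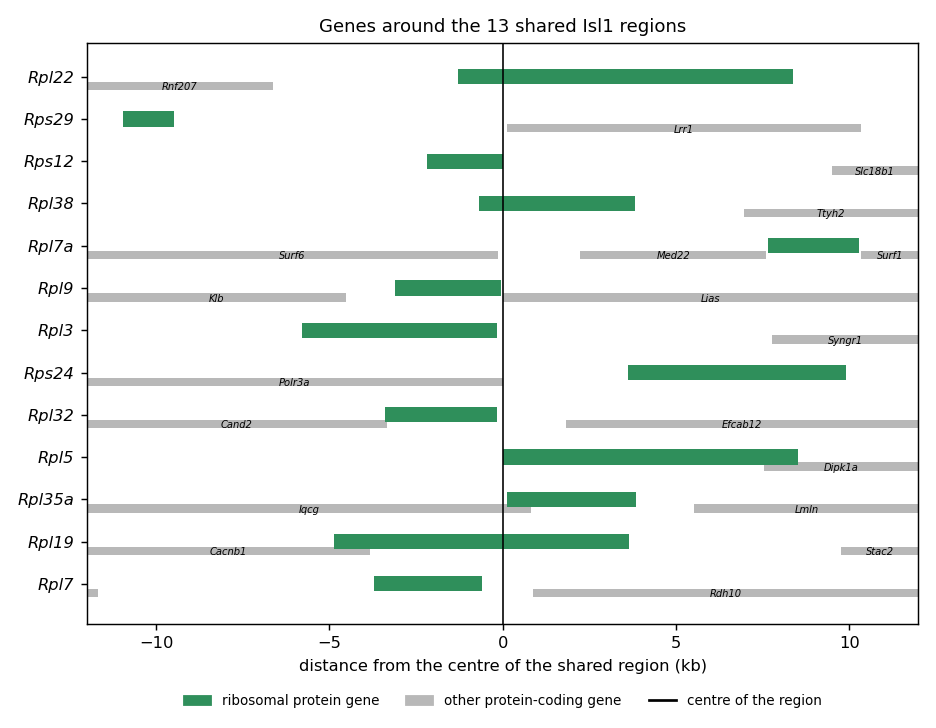
Protein-coding genes around each of the 13 shared regions, drawn to scale in kb from the centre of the region (vertical line), with the strongest region on top. Ribosomal protein genes are green and other protein-coding genes grey. The line lies at an end of, or inside, the green gene in most rows, and away from it for Rps29, Rpl7a and Rps24.

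By subunit, 10 of 50 large subunit genes (20.0%, 11.2 to 33.0%) and 3 of 31 small subunit genes (9.68%, 3.35 to 24.9%) had a shared region in the gene or within 10 kb. Within 1 kb of a RefSeq start the counts were 6 of 38 large subunit genes (15.8%, 7.44 to 30.4%) and 1 of 23 small subunit genes (4.35%, 0.772 to 21.0%). The shares over all protein-coding genes were 14.3% in the gene or within 10 kb and 4.93% within 1 kb of a start. Near starts the small subunit share, from 1 gene, was thus not above that of all genes. The intervals of the subunits overlap, and the difference was not tested. The small subunit count of 3 rests on few genes: it was 5 with the list of replicate 1 alone, 4 with that of replicate 2 alone, 1 with a window of 1 kb and 1 when a region counted only at the gene with the nearest end. The stalk genes Rplp0, Rplp1 and Rplp2 and the laminin receptor gene Rpsa had no peak in either list.

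In 10 of the 13 regions replicate 1 had the higher score, and in 3 (Rpl22, Rpl32 and Rpl7) replicate 2 did. Whether scores can be compared between lists is not stated, so each list was also read by rank. Against the peaks of their own list, the 13 regions had a median percentile of 83.7 in replicate 1 (2.81 for Rpl7 to 99.98 for Rpl22) and 80.3 in replicate 2 (18.2 for Rpl7 to 100.0 for Rpl22). The largest gap between lists was at Rpl19, at a percentile of 75.3 in replicate 1 and 37.4 in replicate 2. The places agreed closely: midpoints of the paired peaks were 0 to 42.5 bp apart, with a median of 7.5 bp. Peak widths were ordinary, with medians of 192 bp in replicate 1 and 172 bp in replicate 2, against 172 bp and 185 bp over the whole lists.

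**Figure D3:**
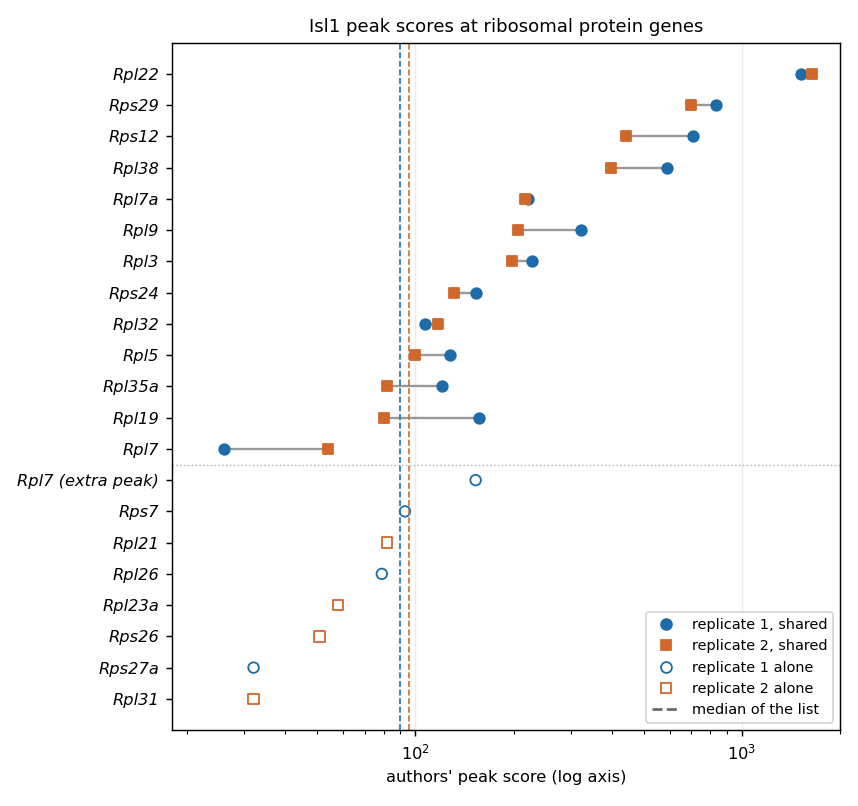
Peak scores at each ribosomal protein gene on a log axis, for replicate 1 (blue circles) and replicate 2 (orange squares). Filled symbols joined by a line are the shared regions, open symbols are peaks of a single list, and dashed lines are the median scores of the lists. Rpl22 stands above the others in both replicates, and single-list peaks at genes without a shared region score 32 to 93.

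The 7 genes with peaks in a single list had scores of 32 to 93, and Rps7 alone was above the median of its list. In replicate 1 alone, Rps7 had a score of 93, 62.5 bp upstream of its start, Rpl26 had 79, 91.5 bp upstream, and Rps27a had 32, inside the gene 42 bp from an end. Rps27a encodes a ubiquitin fused to a ribosomal protein, and the human proteins RPS7 and RPL26 both bind MDM2. In replicate 2 alone, Rpl21 had a score of 82, inside the gene 151.5 bp from an end. Rps26 had 51, 170.5 bp upstream of its start. Rpl23a had 58 and Rpl31 had 32, both farther away (5.14 kb and 2.08 kb from an end). Of these 7 peaks, 5 were within 1 kb of an end of the gene. No such share over the single-list peaks of all genes stands beside that count. By single list, 16 genes had a replicate 1 peak in the gene or within 10 kb (19.8%, against 17.3% of all genes) and 17 had a replicate 2 peak (21.0%, against 17.6%).

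For the 68 genes without a shared region in the window, the nearest shared region was a median of 123 kb away (quartiles 50.4 and 265 kb), and the closest, at Rpl18, was 10.7 kb away.

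Strength was set beside that of the other regions at gene ends. The 8 regions within 1 kb of an end of a ribosomal protein gene had a median lower score of 152, against 206 for all 930 such regions, and 2 of the 8 (Rps12 and Rpl38) were above 206. The lower score of Rps12 (442) was at or above that of 76.9% of gene-end regions, and that of Rpl7 (26) at or above 0.753%. Around RefSeq starts, all 7 midpoints of ribosomal protein genes were upstream, by 10 to 157.5 bp with a median of 66.5 bp. Upstream is counted here from the nearest start in the table. The midpoints of Rpl22, Rps12, Rpl38 and Rpl19 lay inside the gene as annotated. Of the 791 regions near any start, 621 (78.5%) had their midpoint upstream, and over all 791 the median position was 81 bp upstream. The 7 regions had a median lower score of 206, against 220 for those 791.

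**Figure D4:**
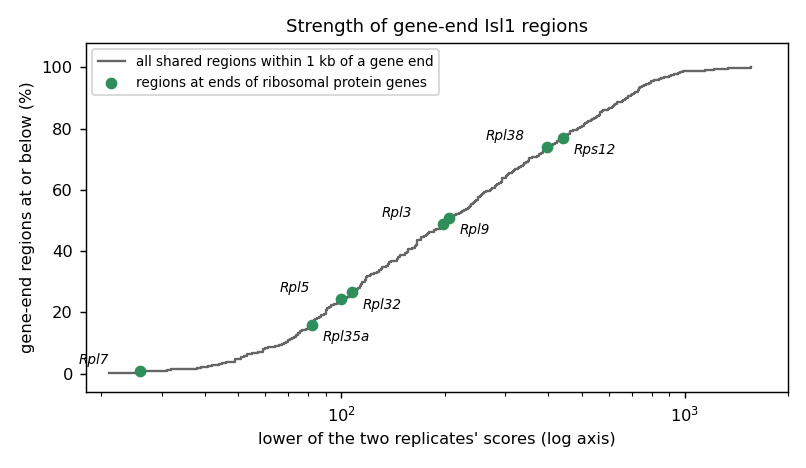
Cumulative share, in percent, of the 930 shared regions within 1 kb of a gene end by the lower of both replicates' scores (log axis), with the 8 regions at ends of ribosomal protein genes as green points. The points spread along the curve, from Rpl7 at 26 to Rps12 at 442. Rpl22 is not shown because its region is 1.28 kb from a gene end.

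Other gene groups of protein synthesis and turnover had shares of the same order, apart from a lower value for splicing factors. Within 1 kb of a RefSeq start, 7 of 61 ribosomal protein genes (11.5%) stood beside 11 of 69 mitochondrial ribosomal protein genes (15.9%, 9.14 to 26.3%), 7 of 55 genes with Eif or Eef symbols, mostly translation factors (12.7%, 6.30 to 24.0%), 3 of 32 genes of ribosome biogenesis and RNA polymerase I (9.38%, 3.24 to 24.2%), 4 of 32 proteasome genes (12.5%, 4.97 to 28.1%) and 1 of 30 hnRNP and SR splicing factor genes (3.33%, 0.591 to 16.7%). These intervals overlap that of the ribosomal protein genes, and no difference between groups was tested. In the gene or within 10 kb, the counts were 13 of 78 mitochondrial ribosomal protein genes (16.7%) and 13 of 71 Eif and Eef genes (18.3%). They were 5 of 38 biogenesis genes (13.2%), 9 of 39 proteasome genes (23.1%) and 1 of 32 hnRNP and SR genes (3.1%). All protein-coding genes stood at 14.3% by that measure and at 4.93% within 1 kb of a start. The strongest region of the mitochondrial genes was at an end of Mrpl42 (scores 539 and 439), and those of the translation factors were 269.5 bp from an end of Eif3b, an initiation factor subunit (907 and 646), and 189 bp from one of Eef1a1, which brings aminoacyl-tRNA to the ribosome (636 and 736). Psmc1, a proteasome ATPase, had a region with scores of 495 and 539. Polr1a, the largest RNA polymerase I subunit, had one with scores of 540 and 304, and the splicing factor list had its single gene at Hnrnpk (165 and 206).

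**Figure D5:**
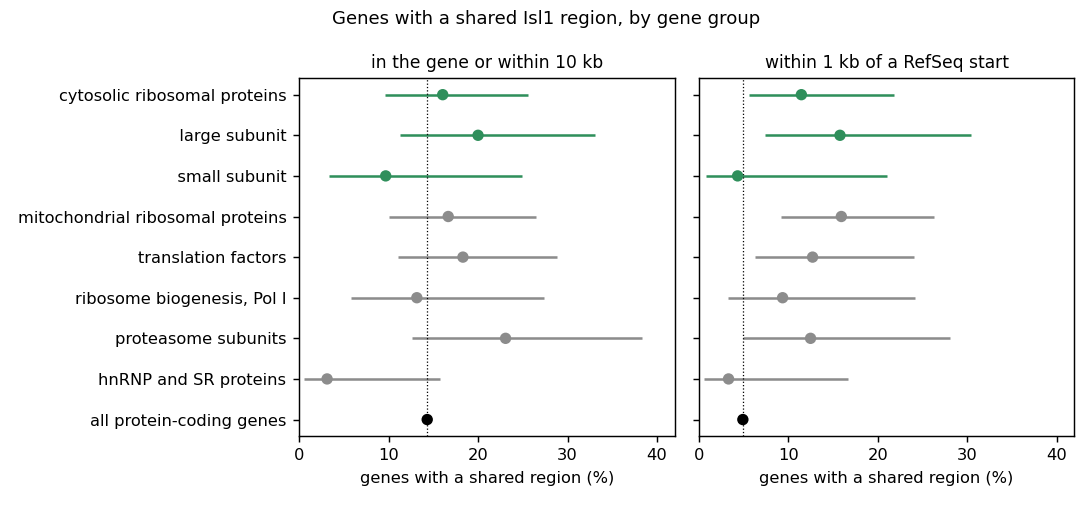
Share of genes, in percent, with a shared region in the gene or within 10 kb (left) and within 1 kb of a RefSeq start (right), as points with Wilson 95% intervals. Ribosomal protein genes and their subunits are green, other groups grey, and all protein-coding genes black with a dotted line. Near starts the ribosomal protein genes stand at 11.5%, against 4.93% for all genes.

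As a whole, the promoters of ribosomal protein genes had an ordinary base composition. The RefSeq promoter windows (300 bases each) of ribosomal protein genes had a median GC content of 57.7%, against 56.3% over all protein-coding genes. A shared region reached into 10 of their 73 windows, all of the 7 genes named above, against 3.74% of the 21262 windows of all protein-coding genes. The 10 windows had a median GC content of 55.5%, against 58.0% for the 63 ribosomal protein windows without a region. For the 796 windows of any gene with a region the median was 61.3%, and these differences were not tested. Among windows with a GC content in the middle range of the ribosomal protein windows (53.0 to 62.3%), a shared region reached into 6 of 37, against 4.63% of 6591. Some windows of a gene overlap.

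Letters of known promoter motifs were searched on both strands of the same windows. The LIM-homeodomain type letters TAATTA and CTAATG, which both hold TAAT, were in none of the 10 windows with a region, and in 2 and 3 of the 73. They were in 1.51% and 4.40% of the 796 windows of any gene with a region, and in 4.53% and 6.44% of all windows. The bare core TAAT, searched on both strands after the data were seen, was in 7 of the 10 windows and in 33 of the 73 (45.2%), against 45.4% of the 796 windows and 51.8% of all windows. The 10 windows come from 7 genes. Some windows of a gene overlap, so 1 site can count more than once. Within these windows, the part common to both replicates held TAAT at 1 place in Rpl38, Rpl9 and Rpl35a and at 2 in Rpl19. It held none in Rpl22, Rps12 and Rpl5. In Rpl22 and Rps12 the common part runs on beyond the window, and those bases were not searched. A missing match says only that these letters are not in the window.

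Among letters of general promoter factors, those of the ETS and YY1 types and the pyrimidine start were more frequent in the ribosomal protein windows than in all windows. The ETS type CCGGAAG was in 26 of 73 (35.6%, 25.6 to 47.1%), against 11.6% of all windows, and the YY1 type AANATGGC in 15 of 73 (20.5%, 12.9 to 31.2%), against 6.37%. A C followed by 4 or more pyrimidines within 5 bases of the start, on the sense strand, was in 31 of 73 (42.5%, 31.8 to 53.9%), against 18.6%. In the 10 windows with a region, which come from 7 genes, these 3 features were in 2, 3 and 4. Of the 796 windows of any gene with a region, 18.1%, 10.1% and 19.7% held them. At the nearest starts of the 7 ribosomal protein genes, AANATGGC was in the window of Rpl35a alone, a gene with 3 starts. Counts over the 10 windows can thus repeat a site. CCGGAAG stands 20 bases before the start of Rpl38 within the printed capitals, with GGGCGG, the Sp1 type, 36 bases before it. Of the other letters searched, GGGCGG was in 57.5% of the ribosomal protein windows, against 46.2% of all windows. The NF-Y type CCAAT was in 30.1%, against 38.2% of all windows. The E-box CACGTG was in 11.0%, against 7.84%. The TATA box was in 9.59%, against 12.6%. The CRE was in 6.85%, against 2.23%, and the NRF1 type letters in 6.85%, against 6.38%.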

How the data were processed

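Isl1 ChIP was done on genital tubercle chromatin, per the labels' protocols, with tissue fixed in 1% formaldehyde for 20 minutes, DNA sheared to 150 to 400 bp and single-end reads of 75 bp. Trimmomatic 0.35, Bowtie2 2.2.6, MACS2 2.1.0.20150731 and bedtools are named with mm10 in the submitters' processing notes, without settings. Each peak's score is a whole number that the authors deposited, and how it was made from ChIP and input reads is not given in the sources used here. Weak peaks near the threshold may be listed in a single replicate.

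Peaks overlapping by at least 1 bp formed shared regions, placed by the midpoint of the longest overlap. Genes and promoter windows came from RefSeq tables of GRCm38.p6, where 61 of 81 ribosomal protein genes have a start. Distances use those starts, or gene ends for all genes. Rpl3 was kept, since the excluded endings were read as paralog suffixes. Work was done in Python 3.11.15 with SciPy 1.17.1, and the overlap code was tested on simulated data. Every gene with a shared region or a single-list peak is named, with at most 4 genes of each other group, taken in that group's order of the lower score, and promoter sequences in the same order. The stalk genes, Rpsa and Rpl11 are named for their function. One gene of the planned lists is not reported here. The gene set and lists were chosen with earlier results of these data known. Alternatives changed the overlap, score threshold, window, placement, gene set and replicates.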

Additional observations from a re-analysis of the deposited data

How the results depend on the processing

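Of 290 results under alternatives, 253 stayed within 1.5 times the reported count and 37 moved, of which 30 were counts at single genes or other gene groups. Counts at single genes cannot change where only the gene set was altered. Leaving out a replicate can add genes but seldom lose one, because a shared region needs a peak in both lists. The tally is therefore no measure of stability. All 13 genes kept their region with 50% reciprocal overlap and with any base of the region in the window. Requiring scores of at least 50 left 12 genes (without Rpl7), and of at least 100 left 10 (also without Rpl19 and Rpl35a). These were 14.8% and 12.3% of the ribosomal protein genes, against 13.1% and 9.34% of all genes. At gene ends these score limits left 7 and 6 genes (8.64% and 7.41%, against 4.67% and 3.72% of all genes). At RefSeq starts they left 7 and 5. With 1 kb beside the gene 10 genes remained, and with 5 kb 11, without Rpl7a and Rps29 in both and without Rps24 in the first. These shares, 12.3% and 13.6%, were near those of all genes, 11.1% and 12.5%. With 50 kb the count was 29 (35.8%, against 26.3% of all genes), 21 of the large and 8 of the small subunit. Small subunit genes numbered 1 with 1 kb and 1 when a region counted only at the gene with the nearest end. That last setting left 9 genes in all (11.1%, against 10.8% of all genes). It left 7 at gene ends (8.64%, against 4.08%) and 6 at RefSeq starts. Leaving out a replicate gave 16 to 17 genes in the window, with 4 to 5 of the small subunit. Counts were then 8 to 9 at RefSeq starts and 10 to 11 at gene ends. At gene ends that was 12.3 to 13.6%, against 5.76 to 5.99% of all genes. Without members whose symbol ends in l, 13 of 76 genes (17.1%) had a region in the window and 8 (10.5%) at a gene end. All genes stood at 14.3% and 4.89% there. Without Rpl3 the counts were 12 in the window and 7 at gene ends; with Rps3a1, Rpl36al and Fau they stayed at 13 and 8. Both of these settings and the backgrounds of short genes and of like GC content were chosen after the data were seen. Gene starts had been planned, with gene ends as the fallback. Giving starts for the 61 genes that have one and ends for all 81 was decided once the reference tables were seen. No paired analysis was possible because neither input sample, although numbered like the ChIP samples, has a peak list. Read depth is unknown, and peaks under the authors' threshold cannot be seen.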

Other observations

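None of Rpl22l1, Rpl7l1, Rpl36al, Rps3a1 and Fau had a shared region in the gene or within 10 kb, and Rpl7l1 alone had a replicate 1 peak there. These are close relatives, or ribosomal protein genes whose symbols the rule does not take, and Rpl22l1 is the paralog of Rpl22, the gene with the strongest region.

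Pseudogenes are inactive copies of ribosomal protein genes elsewhere in the genome. Of 317 annotated pseudogenes with symbols of ribosomal protein genes and -ps, 12 had a shared region in the copy or within 10 kb. That is 3.79% (Wilson 95% interval 2.18 to 6.50%). None had one in the copy or within 1 kb, which allows a share of up to 0.946% (3 counts of the total). The upper Wilson limit for that count is 1.20%. No share over all pseudogenes stands beside these values, so they are not set against those of genes. Small nucleolar RNA genes lay inside 29 of the 81 ribosomal protein genes. A shared region was counted at 5 of these 29 hosts (Rps12, Rpl3, Rpl7a, Rpl5 and Rpl32) and at 8 of the other 52. Over all protein-coding genes the share was 14.3%, and no difference was tested.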
